A study of Mus musculus with 8 samples.

Results

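Fibroblasts build the connective tissue matrix and carry a contractile actin cytoskeleton. They secrete fibrillar collagens with the proteoglycans and crosslinking enzymes that order the fibres, and their actin genes respond to serum response factor (SRF), to YAP with its TEAD partners and to TGF-beta. Fibroblasts are often used as feeder cells for mouse embryonic stem (ES) cells, and cells leaving the pluripotent state can also turn on many of these genes. The 42 genes described here were listed by name as fibroblast, matrix and actin-adhesion genes. A probe counted as detected in a group when both of its arrays had a detection p-value under 0.05, and for each gene the brightest probe detected in any group was used. All 42 were measured, of 8733 genes in all.

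Illumina bead arrays measured total RNA from 4 groups of mouse ES cells of a B6D2F1 hybrid background, with 2 arrays each. The groups were normal ES cells, parthenogenetic ES cells derived from oocytes, parthenogenetic cells labelled as overexpressing Igf2, and parthenogenetic cells labelled as having H19 turned down. The modified groups thus share the parthenogenetic origin with their controls, and the sources used here do not give the method of modification, the number of clones or the use of feeder cells. The labels number the arrays as replicates without naming separate cultures, so p-values measure only the spread between these arrays, which may be technical.

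Median array intensities ran from 172 to 197 units, 47.1% to 49.5% of the probes were detected, and the number of arrays limits the precision. Igf2, the growth factor gene named in a label, stood on the log2 scale at 15.61 and 15.49 in Igf2-labelled cells and at 15.58 and 15.62 on the parthenogenetic arrays (adjusted p = 0.723 in limma), so the groups are named here by their labels. It was 14.98 and 14.94 in H19-labelled cells and 15.62 and 13.63 on the normal arrays, and no probe was named H19. The 2 normal arrays stood apart from each other. Their correlation over the probes tested was 0.961, with log2 gaps over 1 at 1027 probes, against correlations of 0.995 to 0.996 and 20 or 21 such probes in the other pairs.

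The gap between the normal arrays ran through the fibroblast genes. Of the 42 genes, 41 were lower on normal replicate 2 than on normal replicate 1, with a median difference of -1.56 on the log2 scale, and 32 differed by more than 1. Over all genes 45.9% were lower, the median difference was 0.05 and 7.83% differed by more than 1. In the other 3 groups the median difference between replicates was 0.02 or 0.03, and 0 of the 42 genes differed by more than 1. Normal replicate 2 had the lowest of the 8 values for 36 of the 42 genes, and for 25.5% of all genes. For this reason comparisons among the 3 parthenogenetic-derived groups were fitted on their 6 arrays, and the counts of calls in the fit on all 8 arrays are given beside them.

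The common shift of an array is the median, over the 42 genes, of the log2 level minus the gene's own mean over the 8 arrays. It was 0.45 and -1.03 on normal replicates 1 and 2, 0.42 and 0.43 on the parthenogenetic arrays, 0.21 and 0.24 in Igf2-labelled cells, and -0.43 and -0.41 in H19-labelled cells. The same median over all genes stayed between 0.00 and 0.03 on every array. The genes were thus high on both parthenogenetic arrays and on normal replicate 1, slightly lower in Igf2-labelled cells, lower on both H19-labelled arrays, and lowest on normal replicate 2. In these bulk samples fewer fibroblast-type cells and less of this RNA per cell cannot be told apart. The mean levels of parthenogenetic, Igf2-labelled and H19-labelled cells descended in that order for 35 of the 42 genes and for 23.3% of all genes.

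**Figure D1:**
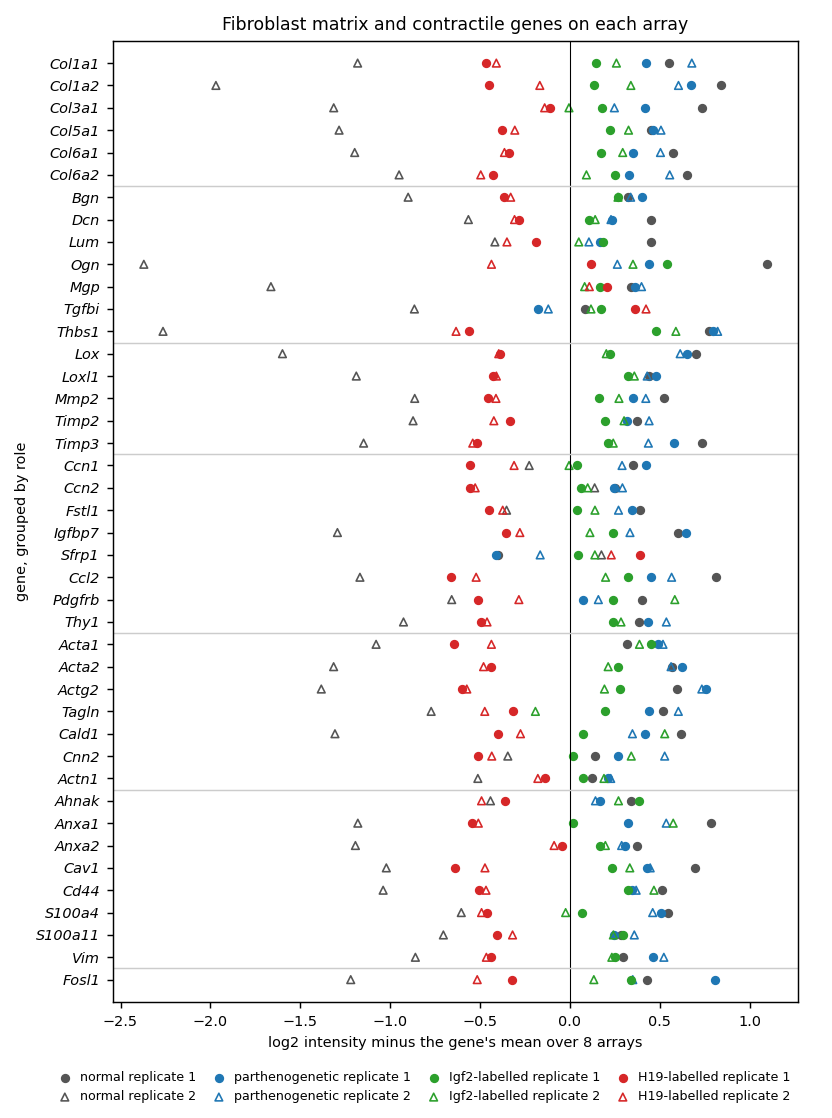
Log2 intensity of each of the 42 genes on each of the 8 arrays, minus that gene's mean over the arrays. Circles are replicate 1, triangles replicate 2, and lines separate roles. Normal replicate 2 lies lowest for 36 genes, and Tgfbi and Sfrp1 lie higher on the H19-labelled than on the parthenogenetic arrays.

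Of the 3 comparisons among parthenogenetic-derived groups, that of H19-labelled with parthenogenetic cells had the largest median difference. In the 6-array limma fit 38 of the 42 genes fell and 2, Tgfbi and Sfrp1, rose, while 17.1% of all probes tested fell and 16.1% rose (Benjamini-Hochberg adjusted p under 0.05). The median difference over the 42 genes was -0.82 on the log2 scale, against 0.01 over all genes. The quartiles were -0.96 and -0.60 for the 42 genes and -0.21 and 0.21 for all genes. The 2 genes that missed the threshold were Ogn at -0.51 (adjusted p = 0.0805) and Mgp at -0.22 (adjusted p = 0.0722). With the normal arrays in the fit the error widened, and 1 of the 42 genes, Ccn2, fell at an adjusted p of 0.0145, where 1.83% of all probes fell. The Igf2-labelled differences below share the parthenogenetic arrays with this comparison.

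All 6 collagen genes fell in H19-labelled cells, with a median of -0.87. Col1a1, a chain of the main fibrillar collagen, measured 12.29 and 12.54 in parthenogenetic cells and 11.40 and 11.45 in H19-labelled cells, after 12.01 and 12.12 in Igf2-labelled cells. It was 12.42 and 10.68 on the normal arrays. The H19-labelled values did not overlap those of either other parthenogenetic group, and the fall from parthenogenetic cells was 0.99 (SE 0.10, adjusted p = 0.0012). Its partner chain Col1a2 changed by -0.95 (SE 0.12) and Col5a1, which regulates fibril width, by -0.83 (SE 0.08). The microfibril chains Col6a1 and Col6a2 changed by -0.78 (SE 0.09) and -0.90 (SE 0.10). Col3a1, the fibrillar collagen of soft tissue, changed least at -0.46 (SE 0.10, adjusted p = 0.0142), from 11.10 and 10.93 to 10.57 and 10.54. On normal replicate 2 it was lower than on those arrays, at 9.37.

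The proteoglycans and other matrix proteins moved less evenly. Of the 7 measured, 4 fell, 1 rose and 2 did not pass, with a median of -0.51. The small leucine-rich proteoglycan genes Bgn, Dcn and Lum, whose proteins bind collagen fibrils, changed by -0.72 (SE 0.07), -0.53 (SE 0.07) and -0.41 (SE 0.09). Thbs1 encodes thrombospondin 1, a matricellular protein that can activate latent TGF-beta. Its level was 10.47 and 10.49 in parthenogenetic cells, 10.15 and 10.26 in Igf2-labelled cells, 9.11 and 9.04 in H19-labelled cells, and 10.44 and 7.41 on the normal arrays. Among the 42 genes this was the largest fall, 1.41 on the log2 scale or 2.65-fold (SE 0.08, adjusted p = 3.32e-04).

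Tgfbi, an adhesion protein gene induced by TGF-beta, went the other way. It rose from 9.39 and 9.44 in parthenogenetic cells to 9.93 and 9.99 in H19-labelled cells, by 0.54 (SE 0.07, adjusted p = 0.00267). It lay between them in Igf2-labelled cells, at 9.74 and 9.68, and was 9.65 and 8.70 on the normal arrays. The H19-labelled values were the highest of all 8 arrays. A dimmer second probe of Tgfbi differed by 0.31 without passing (adjusted p = 0.107). Mgp, which encodes an inhibitor of matrix calcification, stood at 11.15 and 11.19 in parthenogenetic cells and at 10.997 and 10.90 in H19-labelled cells. It was 10.96 and 10.87 in Igf2-labelled cells and 11.13 and 9.13 on the normal arrays, so it separated the normal arrays far more than the other groups. Ogn, the osteoglycin gene, measured 8.39 and 8.22 in parthenogenetic cells, 8.49 and 8.30 in Igf2-labelled cells and 8.07 and 7.52 in H19-labelled cells. Between the normal arrays it dropped from 9.05 to 5.58 and was not detected on normal replicate 2.

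All 5 genes of matrix enzymes and their inhibitors fell in H19-labelled cells, with a median of -0.87. Lox, the lysyl oxidase that crosslinks collagen and elastin, measured 13.26 and 13.23 in parthenogenetic cells, 12.84 and 12.81 in Igf2-labelled cells, 12.22 on both H19-labelled arrays, and 13.31 and 11.01 on the normal arrays. Its change from parthenogenetic cells was -1.02 (SE 0.07, adjusted p = 5.37e-04), and the 3 groups did not overlap. Loxl1, a relative that acts on elastic fibres, and Mmp2, a gelatinase, changed by -0.87 (SE 0.07) and -0.82 (SE 0.08). Timp2 and Timp3, inhibitors of such proteases, changed by -0.76 (SE 0.09) and -1.04 (SE 0.08), and a dimmer probe of Timp3 by -1.30 (adjusted p = 0.00352).

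Among 8 genes of secreted signals and receptors, 7 fell and Sfrp1 rose. Ccn2 (connective tissue growth factor) and Ccn1 are matricellular genes known as targets of YAP and TEAD. Ccn2 measured 13.57 and 13.62 in parthenogenetic cells, 13.38 and 13.42 in Igf2-labelled cells, 12.77 and 12.80 in H19-labelled cells, and 13.58 and 13.46 on the normal arrays. Its normal arrays thus nearly matched, unlike those of nearly all the other genes, and its fall of 0.81 (SE 0.07, adjusted p = 8.04e-04) was the call that held in both fits. Ccn1 fell from 11.38 and 11.25 to 10.40 and 10.65, by 0.79 (SE 0.10, adjusted p = 0.00253), and its 2 other probes changed by -0.96 and -0.73, both past the threshold. Fstl1, a follistatin-like glycoprotein gene, and Igfbp7, a secreted IGF-binding protein gene, changed by -0.72 (SE 0.08) and -0.81 (SE 0.12). The chemokine gene Ccl2 changed by -1.10 (SE 0.09), the surface glycoprotein gene Thy1 by -0.96 (SE 0.07), and Pdgfrb, a PDGF receptor gene that was not detected on normal replicate 2, by -0.51 (SE 0.14, adjusted p = 0.0309).

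Sfrp1, a secreted WNT antagonist gene, was the other exception. It measured 9.999 and 10.24 in parthenogenetic cells, 10.45 and 10.55 in Igf2-labelled cells, 10.80 and 10.64 in H19-labelled cells, and 10.01 and 10.58 on the normal arrays. The rise in H19-labelled cells was 0.60 (SE 0.11, adjusted p = 0.00835). It was the 1 gene of the 42 that was higher on normal replicate 2 than on normal replicate 1, so its order over the arrays was nearly the reverse of the common one.

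All 7 actin and actin-binding genes fell in H19-labelled cells, with a median of -0.92. Acta2, the smooth muscle alpha-actin of contractile fibroblasts, measured 14.78 and 14.71 in parthenogenetic cells, 14.42 and 14.36 in Igf2-labelled cells, 13.71 and 13.67 in H19-labelled cells, and 14.72 and 12.84 on the normal arrays. The groups stepped down without overlap, and the H19-labelled fall was 1.05 (SE 0.07, adjusted p = 5.41e-04). The other 3 probes of Acta2 changed by -1.37, -1.35 and -1.19. Actg2, the enteric smooth muscle actin, went from 10.12 and 10.10 through 9.65 and 9.56 in Igf2-labelled cells to 8.77 and 8.79 in H19-labelled cells, a fall of 1.33 (SE 0.07, adjusted p = 3.32e-04). It was 9.96 and 7.98 on the normal arrays.

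Acta1, the skeletal muscle actin, measured 10.45 and 10.47 in parthenogenetic cells and 10.41 and 10.34 in Igf2-labelled cells, and fell to 9.31 and 9.52 in H19-labelled cells, by 1.04 (SE 0.09, adjusted p = 8.26e-04). The actin genes are close relatives, so their probes may share signal. Tagln, an actin-binding marker of contractile cells, changed by -0.92 (SE 0.14), the caldesmon gene Cald1 by -0.72 (SE 0.15), and the calponin gene Cnn2 by -0.87 (SE 0.14). Actn1, an actin crosslinker that ES cells also use, changed by -0.38 (SE 0.08, adjusted p = 0.0114).

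The promoters of 26 of the 42 genes were in the RefSeq table (GRCm38.p6), and the 250 bases before the start were searched on both strands for the CArG box bound by SRF (CC, then A or T only, then GG) and for the TEAD motif GGAATG. Of the 26 genes 2, Acta1 and Cnn2, held an exact match to the CArG box, against 1.62% of 27025 genes, and 9 held a TEAD motif, against 14.4%. The sequences of 3 genes that fell are shown with 1 that rose, to set the letters before the start of actin, CCN and Tgfbi genes side by side, 5′ to 3′ on the strand of the gene, with CArG boxes and TEAD motifs (or its reverse complement) in capitals. A match describes the letters only, and near matches were not counted or put in capitals. The Acta2 window, for example, holds ccctatatgg and ccttgtttgg, each 1 base from the CArG pattern.
Acta1, chr8:123894776-123895025, minus strand: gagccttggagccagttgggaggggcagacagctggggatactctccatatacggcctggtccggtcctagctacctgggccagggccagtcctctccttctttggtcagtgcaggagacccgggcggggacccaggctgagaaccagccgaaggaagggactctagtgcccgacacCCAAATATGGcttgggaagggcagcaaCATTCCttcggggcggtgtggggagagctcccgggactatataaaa
Acta2, chr19:34255374-34255623, minus strand: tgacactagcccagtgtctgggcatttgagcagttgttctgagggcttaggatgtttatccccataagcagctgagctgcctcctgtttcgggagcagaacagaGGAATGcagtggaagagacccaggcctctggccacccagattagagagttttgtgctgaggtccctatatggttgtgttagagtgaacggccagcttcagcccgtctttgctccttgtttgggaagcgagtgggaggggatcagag
Ccn1, chr3:145649986-145650235, minus strand: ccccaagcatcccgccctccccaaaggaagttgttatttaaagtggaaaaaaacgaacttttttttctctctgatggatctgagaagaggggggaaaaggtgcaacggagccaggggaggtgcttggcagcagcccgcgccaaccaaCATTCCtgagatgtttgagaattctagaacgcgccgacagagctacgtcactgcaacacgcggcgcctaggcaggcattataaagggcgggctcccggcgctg
Tgfbi, chr13:56609336-56609585, plus strand: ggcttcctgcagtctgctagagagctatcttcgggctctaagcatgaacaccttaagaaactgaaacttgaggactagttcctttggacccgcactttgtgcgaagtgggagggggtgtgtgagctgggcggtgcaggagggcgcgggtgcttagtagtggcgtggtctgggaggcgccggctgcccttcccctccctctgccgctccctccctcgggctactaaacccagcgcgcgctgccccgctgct

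In Acta1 the CArG box begins 73 bases before the start and the TEAD motif 46 bases before it. The TEAD motif begins 146 bases before the start of Acta2 and 103 before that of Ccn1, and neither motif was found in the Tgfbi window.

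The 8 genes of membrane, calcium-binding and cytoskeletal proteins all fell, with a median of -0.89. Vim, the intermediate filament of mesenchymal cells, measured 13.84 and 13.90 in parthenogenetic cells, 13.63 and 13.62 in Igf2-labelled cells, 12.94 and 12.92 in H19-labelled cells, and 13.68 and 12.52 on the normal arrays, a fall of 0.94 (SE 0.07, adjusted p = 5.91e-04). Cav1, the caveolae coat gene, changed by -0.99 (SE 0.09), the hyaluronan receptor gene Cd44 by -0.84 (SE 0.08), and Ahnak, a giant scaffold protein gene, by -0.58 (SE 0.08). The annexin genes, whose proteins bind membranes with calcium, differed from each other, with Anxa1 at -0.96 (SE 0.18) and Anxa2 at -0.37 (SE 0.07, adjusted p = 0.00939). The calcium-binding genes S100a4 and S100a11 changed by -0.96 (SE 0.07) and -0.66 (SE 0.08). Fosl1, an AP-1 transcription factor gene, went from 9.36 and 8.91 to 8.23 and 8.04, a difference of -0.999 (SE 0.17, adjusted p = 0.00582).

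Measured against the common shift of -0.82, 29 of the 42 genes lay within 0.25 of it. Those furthest above were Sfrp1, Tgfbi and Mgp, by 1.42, 1.37 and 0.60, and those furthest below were Thbs1, Actg2 and Ccl2, by -0.58, -0.51 and -0.27. Across the 42 genes the difference had a Pearson correlation of -0.03 with the mean level (Spearman 0.09), as a description over genes that share the same arrays. The brightest of the 42 probes reached 39144 units, and the brightest probe of an array 64070 to 67905.

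**Figure D2:**
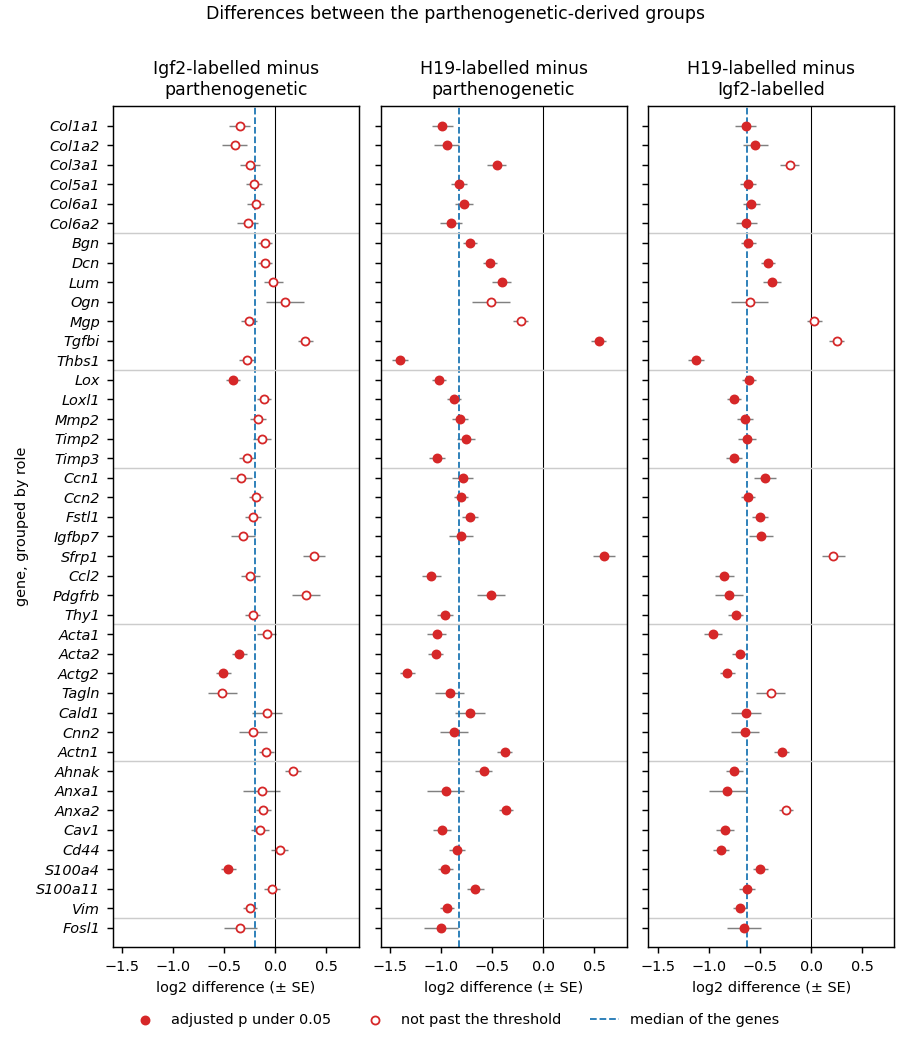
Log2 differences of the 42 genes between the parthenogenetic-derived groups in the 6-array limma fit, with standard errors. Filled points have an adjusted p under 0.05 and the dashed line is the median of the genes, at -0.20, -0.82 and -0.63 from left to right. Sfrp1 and Tgfbi lie to the right of 0 in every panel.

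The Igf2-labelled arrays differed less from parthenogenetic cells. Of the 42 genes 36 were lower and 6 higher, with a median of -0.20, where 53.1% of all genes were lower with a median of -0.01. An unadjusted p under 0.05 was found in limma for 22 of the 42 genes and for 3378 of the 12932 probes tested. Past the threshold 4 genes fell and 0 rose, while 4.25% of all probes fell and 5.44% rose. The 4 were Actg2 at -0.51 (SE 0.07, adjusted p = 0.0126), S100a4 at -0.46 (SE 0.07, adjusted p = 0.0173), Lox at -0.42 (SE 0.07, adjusted p = 0.0183) and Acta2 at -0.35 (SE 0.07, adjusted p = 0.0329). S100a4 went from 9.30 and 9.25 to 8.86 and 8.77, and was 8.33 and 8.30 in H19-labelled cells. The count was 0 with all 8 arrays, where 70 of 12932 probes passed, and it also fell when single arrays were left out. Under 5 other settings it was between 9 and 21, with 7 to 19 genes lower and 2 higher, Sfrp1 and Tgfbi, so this count depends on the processing.

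Furthest above the shift of -0.20 were Sfrp1, Pdgfrb and Tgfbi, which differed from parthenogenetic cells by 0.38, 0.30 and 0.29, opposite in sign to the shift, and stood 0.58, 0.50 and 0.49 above it. They did not pass the threshold in the 6-array fit (adjusted p = 0.0868, 0.234 and 0.0588), though Sfrp1 and Tgfbi did in the 5 settings just given. Furthest below were Tagln, Actg2 and S100a4. Tagln stood at 8.03 and 8.19 in parthenogenetic cells and at 7.78 and 7.40 in Igf2-labelled cells, a difference of -0.52 with a wider error (SE 0.14, adjusted p = 0.0766). The collagen genes differed by -0.40 to -0.19 and 0 of the 6 passed in limma. An unadjusted p under 0.05 was found for 5 of them, and for 3378 of all 12932 probes.

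Set directly against the Igf2-labelled arrays, the H19-labelled arrays were lower for 39 of the 42 genes, and for 45.5% of all genes. In the 6-array limma fit 35 fell and 0 rose, where 12% of all probes fell and 8.61% rose, and the median difference was -0.63 against 0.03 over all genes. Thbs1 changed by -1.13 (SE 0.08, adjusted p = 0.00178), Acta1 by -0.96 (SE 0.09, adjusted p = 0.00212) and Cd44 by -0.88 (SE 0.08, adjusted p = 0.00199), the furthest below the median. Mgp, Sfrp1 and Tgfbi stood furthest above it at 0.03, 0.22 and 0.25 and did not pass (adjusted p = 0.801, 0.212 and 0.0595). Col3a1, Ogn, Tagln and Anxa2 were the others that did not pass, at -0.21, -0.60, -0.40 and -0.25. With all 8 arrays the fall of 0 genes passed in limma, with a lowest adjusted p of 0.0869, where 26 of 12932 probes passed.

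Parthenogenetic and normal cells could be compared only across the gap between the normal arrays. In the 8-array limma fit 41 of the 42 genes were higher in parthenogenetic cells with a median of 0.65, and Sfrp1 was lower by 0.18. Of all genes 48.0% were higher, with a median of -0.01. None of the 42 passed the threshold, where 0.0232% of all probes rose and 0.0851% fell. An unadjusted p under 0.05 was found for 1 gene, Cnn2 at 0.50, and for 1420 of 12932 probes. Without normal replicate 1 the median was 1.43, and without normal replicate 2 it was -0.065, with a single normal array left each time. The parthenogenetic mean lay between the normal arrays for 24 of the 42 genes and above both for 18, and between them for 48.1% of all genes. The H19-labelled mean lay between the normal arrays for 36 of the 42 genes, and for 45.2% of all genes.

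The gap between the normal arrays and the H19-labelled difference share no array, so their values can be set side by side. Genes that separated the normal arrays most were Ogn, Thbs1 and Col1a2, at -3.47, -3.04 and -2.81, and those that separated them least or the other way were Cnn2, Ccn2 and Sfrp1, at -0.49, -0.12 and 0.57. Over the 42 genes the gap and the H19-labelled difference correlated at a Pearson r of 0.47 (Spearman 0.42), and over all 8733 genes at 0.50 (Spearman 0.45). With the Igf2-labelled difference the gap correlated at 0.37 over the 42 genes and at 0.10 over all genes. These are descriptions across genes measured on the same arrays, not independent points. Thbs1 was among the lowest on both axes and Sfrp1 the highest on both, whereas Ccn2 and Cnn2 fell in H19-labelled cells with a small normal gap and Ogn and Mgp showed the reverse.

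**Figure D3:**
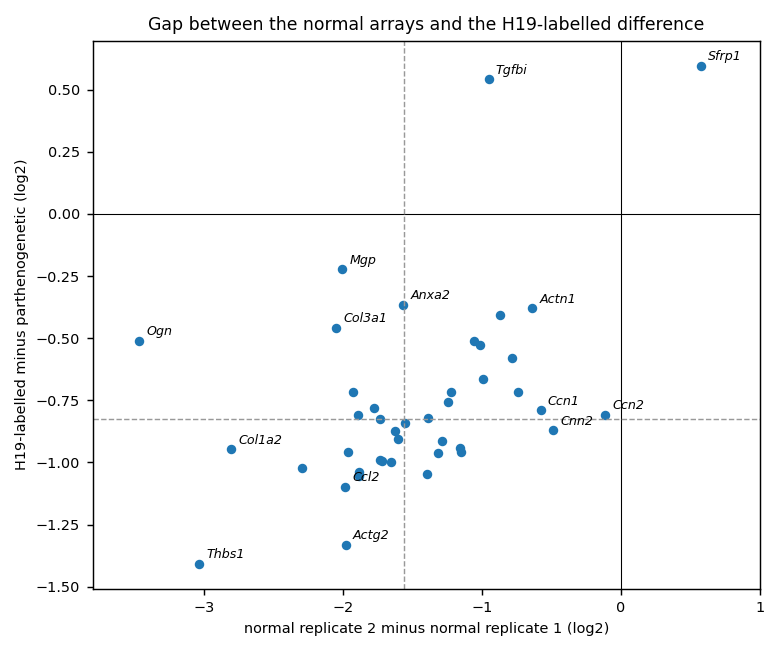
Each point is 1 of the 42 genes. The horizontal axis is normal replicate 2 minus normal replicate 1 and the vertical axis H19-labelled minus parthenogenetic cells, both in log2 units, with dashed lines at the medians of -1.56 and -0.82. Sfrp1 sits at the upper right, Tgfbi above 0 on the vertical axis, and Thbs1 at the lower left.

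Genes of the same pathways outside the 42 were also set against parthenogenetic cells, where 17.1% of all probes fell and 16.1% rose. Of 13 other matrix genes measured in H19-labelled cells 11 fell and 0 rose in limma, with a median of -0.49, among them the collagen-degrading protease gene Ctsk at -0.89, the fibulin gene Fbln2 at -0.82, the membrane protease gene Mmp14 at -0.80 and Timp1 at -0.72. Of 10 other actin and adhesion genes 8 fell, with the tropomyosin genes Tpm2 and Tpm1 at -0.95 and -0.92 and the focal adhesion gene Zyx at -0.79. The cytoplasmic actin gene Actb, at -0.15 (adjusted p = 0.215), and Srf itself, at -0.27 (adjusted p = 0.0557), did not pass. Of 6 YAP and TEAD genes 3 fell, including the target gene Ankrd1 at -1.44 and the receptor gene Axl at -1.08, while Yap1 differed by 0.06 (adjusted p = 0.616). Of 9 TGF-beta genes 6 fell, with the receptor gene Tgfbr2 at -0.999 and the ligand gene Tgfb3 at -0.97, and Eng, a co-receptor gene, rose by 0.28 (adjusted p = 0.0271). With all 8 arrays 0 of these passed in limma, where 563 of 12932 probes did.

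Other fibroblast markers moved beside the 42 genes in H19-labelled cells and on normal replicate 2, but not clearly in Igf2-labelled cells. Of the 6 measured of 10 listed, 5 fell in H19-labelled cells in the 6-array limma fit and 0 with all 8 arrays. Of all probes 17.1% and 1.83% fell in these fits. Their median was -0.52, led by the transcription factor genes Twist2 at -1.13 and Prrx1 at -0.94. The mean level of the 6 was 11.06 and 9.92 on the normal arrays, 11.09 and 11.03 in parthenogenetic cells, 11.04 and 11.09 in Igf2-labelled cells, and 10.41 and 10.39 in H19-labelled cells. In Igf2-labelled against parthenogenetic cells 4 of the 6 were lower and 2 higher, with a median of -0.06. Cxcl12 alone passed there, higher by 0.41 (adjusted p = 0.0205 in limma with 6 arrays and 0.909 with 8). The markers Snai2, Fap, Postn and Fbn1 were not analysed here. Of 10 ES cell markers 3 rose, Nanog, Zfp42 and Sox2 by 0.50, 0.44 and 0.40, and 7 did not pass. The brightest of these 7, Dppa5a and Esrrb, differed by 0.03 and 0.23. In sign 8 of the 10 were higher and 2 lower, Sall4 at -0.07 and Lin28a at -0.05. The median of the 10 was 0.18, and their mean level ranged from 12.76 to 12.99 over the arrays. With all 8 arrays 0 of them passed in limma, where 563 of 12932 probes did.

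Levels of paternally expressed genes were also read, and the source of their RNA was not tested. Cells with only maternal genomes are not expected to use such genes. Ndn, such a gene, measured 12.47 and 12.53 in parthenogenetic cells, 12.24 and 12.29 in Igf2-labelled cells, 11.64 and 11.68 in H19-labelled cells, and 12.48 and 11.41 on the normal arrays, the same order as the 42 genes. Dlk1 did not step down in Igf2-labelled cells. It measured 9.96 and 9.92 in parthenogenetic cells, 9.82 and 10.02 in Igf2-labelled cells, 9.52 and 9.53 in H19-labelled cells, and 9.76 and 8.21 on the normal arrays. From parthenogenetic to H19-labelled cells Ndn and Dlk1 changed by -0.84 and -0.42 and passed in the 6-array limma fit (adjusted p = 7.72e-04 and 0.0146), but not with all 8 arrays (adjusted p = 0.166 and 0.608). Mest and Peg3 were detected on neither the parthenogenetic nor the H19-labelled arrays but on both Igf2-labelled and both normal arrays. Mest stood at 8.95 and 8.89 in Igf2-labelled cells and at 10.69 and 11.75 on the normal arrays, and Peg3 at 6.75 and 6.80 and at 8.89 and 9.29. The rise of both in Igf2-labelled over parthenogenetic cells passed in limma with 6 arrays (adjusted p = 2.18e-04 and 0.00179) and with 8 (adjusted p = 0.0274 and 0.0258). These 4 genes thus did not share 1 pattern over the groups. Igf2, a paternally expressed gene outside this list, measured 15.58 and 15.62 in parthenogenetic cells and 14.98 and 14.94 in H19-labelled cells. On the normal arrays it was 15.62 and 13.63.

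Both Y-linked genes measured were detected on every array. Whether their probes read Y-linked RNA alone was not tested. Eif2s3y stood at 8.16 and 8.12 in parthenogenetic cells, 8.18 and 8.37 in Igf2-labelled cells, 7.35 and 7.48 in H19-labelled cells, and 10.78 and 10.96 on the normal arrays. From parthenogenetic to H19-labelled cells it fell by 0.73 (adjusted p = 0.00232 in limma with 6 arrays and 0.0314 with 8). Uty stood at 7.16 and 7.21 in parthenogenetic cells, 7.47 and 7.07 in Igf2-labelled cells, 7.45 and 7.33 in H19-labelled cells, and 7.73 and 8.02 on the normal arrays, and its difference between the same groups was 0.21 (adjusted p = 0.296). The source of the fibroblast transcripts was not tested, and the data show which genes moved together without naming the cells that held them.

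**Figure D4:**
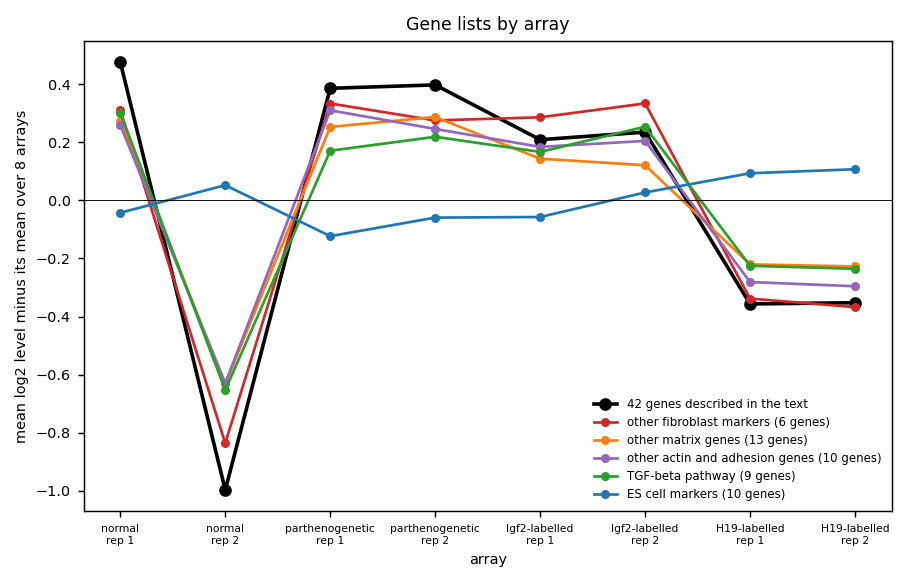
Mean log2 level of each gene list on each array, minus the list's mean over the 8 arrays. The black line is the 42 genes, and the list of ES cell markers stays within a narrow band while the fibroblast, matrix, actin and TGF-beta lists dip on normal replicate 2 and on both H19-labelled arrays.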

How the data were processed

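Per the labels' protocols, RNA was extracted with Trizol and a clean-up column and amplified into biotinylated cRNA for Illumina arrays. The authors deposited probe intensity values that are not normalized, each with a detection p-value, and a log2 table of 12690 probes whose columns all have a median of 9.55. The scanner software, the log2 normalization and the genome build are not stated in the sources used here. Here neqc of limma 3.58.1, run in R 4.3.3, corrected the background from the detection p-values, added an offset of 16, quantile normalized the intensities and took log2. A probe was tested if any group had it detected (p-value under 0.05) on both arrays, which kept 12932 of 25697, of which 11935 had a gene name.

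Group means were fitted with lmFit and eBayes over all probes tested, on 6 arrays (3 residual and 3.29 prior degrees of freedom) for the parthenogenetic-derived groups and on 8 for the comparison with normal cells. Adjusted p-values are Benjamini-Hochberg, with a threshold of 0.05. Standard errors come from the moderated fit. The members, the gene lists and the choice of 6 arrays were made with earlier results of these data known. All measured members are named, those past the threshold with difference and error, and the 3 furthest on each side of the members' median as departures. From other lists up to 4 genes past the threshold by size, and up to 2 others by level, were named. In the ES cell list the 2 lower genes were named as well, and so was Eng, the TGF-beta gene that rose. Lists of markers of smooth muscle, endothelium, macrophages, extraembryonic endoderm and epithelium were also measured. The fits were tested on simulated data in 10 repeats, each with 200 of 12932 probes changed. For H19-labelled against parthenogenetic cells 57.6% of log2 changes of 0.5 and 97.6% of 1 were found, and 7.61% of calls were false. For parthenogenetic against normal cells these values were 5.22%, 70.9% and 5.91%. The simulated probes varied independently, with the spread estimated by the fit, and far fewer changed than the 4288 called for H19-labelled against parthenogenetic cells. These rates thus describe the simulated setting and not the fits of the data. The alternatives changed the arrays in the fit, the background correction, the detection filter, the prior, the table (that of the authors), the probe rule, the replicate block and, in turn, each array. Replicate numbers, from the titles, were not taken to pair the arrays, since the deviations of same-numbered arrays correlated between -0.03 and 0.17.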

Additional observations from a re-analysis of the deposited data

How the results depend on the processing

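The direction of the 42-gene median held under every alternative run except in the comparison of parthenogenetic with normal cells. Leaving out single arrays gave medians there from -0.065 (without normal replicate 2) to 1.43 (without normal replicate 1). The gap between the normal arrays sets the limit there. With all 8 arrays the counts were 0 for Igf2-labelled and 1 for H19-labelled against parthenogenetic cells, against 4 and 40. For H19-labelled against Igf2-labelled arrays the count was 0, against 35. Among all 12932 probes, 70, 563 and 26 passed with 8 arrays, against 1254, 4288 and 2663 with 6. The count of 4 was 12 with no background correction, 9 with normexp and an offset of 50, 10 with a stricter detection filter, 9 in the log2 table of the authors and 21 with a trended and robust prior, and the cause was not tested. Leaving out single arrays gave 0 to 3 for it with medians of -0.22 to -0.15, 35 to 40 for H19-labelled against parthenogenetic cells with medians of -0.85 to -0.80, and 24 to 32 for H19-labelled against Igf2-labelled arrays with medians of -0.65 to -0.59. For H19-labelled against parthenogenetic cells the median was -0.78 with no background correction, -0.79 with normexp and -0.78 in the log2 table of the authors. Against the Igf2-labelled arrays those medians were -0.59, -0.60 and -0.59. With the replicate number as a block the counts were 0, 4, 41 and 35, and the block changed no median. The replicate numbers were not taken to pair the arrays. A lone array in a group was assumed to vary like the others. Signal over background limits Ogn and Pdgfrb, which were not detected on normal replicate 2.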

Other observations

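Markers of other cell types moved in both directions. On the H19-labelled against the parthenogenetic arrays, both macrophage genes measured of 7 listed fell, Lyz2 at -0.92 (SE 0.19, adjusted p = 0.0139 in limma) and Adgre1 at -0.76 (SE 0.18, adjusted p = 0.021), the latter detected on 1 of the 2 H19-labelled arrays. Of 3 endothelial genes, Vwf and Esam rose by 0.85 and 0.51 and Tek fell by 0.40. Of the 2 smooth muscle genes measured, Des rose by 0.48 and Smtn differed by -0.07, while Myh11, Cnn1, Lmod1, Myocd and Mylk were not analysed here. Of 5 extraembryonic endoderm genes Lama1 rose by 0.54 and Dab2 and Col4a1 fell by 0.67 and 0.26. The keratin genes Krt8 and Krt18 and the claudin gene Cldn6 fell by 1.82, 1.34 and 0.64 among 6 epithelial genes. With all 8 arrays in the fit Krt8 and Krt18 passed and the other genes named here did not.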
